A study of Mus musculus with 35 samples.

Results

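Dot1l encodes a histone methyltransferase, and the comparison described here asks what is measured in CD8 T cells when 1 of its 2 copies carries a floxed allele. RNA was sequenced from CD8 T cells sorted from C57BL/6 mice. The Het libraries are labelled Lcre+/-;Dot1Lfl/wt (1 floxed copy), the KO libraries Lcre+/-;Dot1Lfl/fl (both copies floxed) and the WT libraries Lcre+/-;Dot1Lwt/wt (no floxed copy). The Cre transgene was therefore carried by every group, WT included, and is known from the study to be driven by the Lck promoter, which is active in developing T cells. Each genotype was sorted into 3 subsets: single positive CD8 thymocytes, and from the spleen naive (CD44- CD62L+) and memory (CD44+ CD62L+) cells. All 12 Het and 11 WT libraries were used, 23 of 35 in the series: 4 Het libraries in each subset, against 3 WT libraries in thymus, 4 in naive cells and 4 in memory cells. The 12 KO libraries, 4 in each subset, are given beside them where a value of both floxed genotypes is needed. Nothing in the labels ties a replicate to an animal of its own, and the spread behind each p-value is that between libraries, which may be technical.

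DOT1L methylates lysine 79 of histone H3, a mark found along the bodies of transcribed genes. It acts with partners such as MLLT10 (AF10) and the elongation factors of the AF9 and ENL family. In CD8 T cells the Lck-Cre deletion of both copies is known for cells that take on memory features without an antigen challenge. A gene is haploinsufficient when 1 working copy does not give the full effect of a pair.

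The 23 libraries held 4809509 to 16228232 counts (median 10252645) and 11371 to 13866 genes with a count, and genes with few counts are measured with little precision. Levels are given as CPM, the count of a gene scaled to the same library total. Lck lay at 792 CPM or above and Cd3e at 181 CPM or above in all 23 libraries, and Cd4 had at most 2 counts in any thymus library and 0 in every spleen library. Cd44, the surface protein that defines the memory gate, was at 26.3 to 33.2 CPM in Het memory cells and 25.01 to 31.4 CPM in WT memory cells, against 1.18 to 2.36 CPM in Het naive cells and 1.53 to 4.26 CPM in WT naive cells. Rag1, which immature thymocytes use to rearrange receptor genes, was at 4.58 to 21.01 CPM in Het and 4.05 to 12.9 CPM in WT thymus libraries and at 0.219 CPM or less in the spleen. Cd8a had only 33 to 170 counts per library and Gapdh 10 to 55, so counts of such transcripts in this table cannot be read as their level. Het thymus replicate 4 stood apart from the rest of its group: its counts differed from theirs by a chi-square per gene of 34.2 to 45.2, against 4.94 to 17.7 for all other pairs of Het or WT libraries of a group, and results in thymus are also given without it. In bulk RNA, fewer cells of a type and less RNA per cell cannot be told apart. By Xist and the Y-linked genes, 9 Het libraries came from males and 3 from females, against 6 and 5 in WT. Het replicate 3 was female and Het replicates 1, 2 and 4 were male in each subset. In naive and memory cells WT replicates 2 and 3 were female and 1 and 4 male. WT thymus replicate 2 was female, and replicates 1 and 3 were male.

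Dot1l itself lies at chr10:80755206-80795461 (GRCm38). In thymus its level was 70.5, 71.4, 62.7 and 72.4 CPM in the 4 Het libraries, 77.3 ± 1.68 CPM in KO libraries (SD, n = 4) and 69.6, 70.4 and 61.1 CPM in the 3 WT libraries. Naive cells had 50.5, 49.8, 52.2 and 56.1 CPM in Het, 55.7 ± 1.26 CPM in KO and 47.2, 50.8, 51.6 and 48.3 CPM in WT libraries, and memory cells 49.5, 51.9, 40.9 and 47.9 CPM in Het, 45.8 ± 1.88 CPM in KO and 44.8, 52.5, 46.0 and 38.4 CPM in WT libraries. Het and WT libraries overlapped in every subset. The log2 fold change of Het over WT was 0.05 ± 0.08 (SE) in thymus, 0.07 ± 0.08 in naive cells and 0.07 ± 0.08 in memory cells (edgeR quasi-likelihood adjusted p of 0.954, 1 and 1), and 0.03 ± 0.09 in thymus without Het replicate 4. Adjusted for subset over the 23 libraries it was 0.06 ± 0.05, with a 95% interval of -0.05 to 0.17 and an adjusted p of 0.933. A count over the whole gene does not check the deletion, since any transcripts that lack the floxed part could still be counted. KO libraries, which carry no intact copy in cells where the Cre acted, did not have a lower Dot1l count than WT. Reads over the floxed part were not examined, and the cause of the like levels was not tested.

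Nearly all of the 10296 genes tested did not pass the test between Het and WT. edgeR's quasi-likelihood test with Benjamini-Hochberg adjustment (called at an adjusted p under 0.05) called 0 genes in thymus (0% of tested), 0 in naive cells (0%) and 1 in memory cells (0.00971%), which was Atp8a2. As a genotype effect adjusted for subset over the 23 libraries it called 1 gene (0.00971%), which was Bhlhe40. Both were higher in Het. At an unadjusted p under 0.05 there were 636 genes in thymus (6.18%), 275 in naive cells (2.67%), 527 in memory cells (5.12%) and 587 in the adjusted comparison (5.7%). Without Het thymus replicate 4 the edgeR test called 0 genes in thymus, with 422 at an unadjusted p under 0.05 (4.1%), and the adjusted comparison again called 1, Bhlhe40 (log2 fold change 0.91, adjusted p = 0.00248). With all libraries, DESeq2 called 0, 0, 1 and 4 genes in the same order, the 1 in memory cells being Bhlhe40. In the same model KO against WT called 1919 genes in thymus (18.6%), 1879 in naive cells (18.2%) and 2283 in memory cells (22.2%), and KO against Het called 1971 (19.1%), 1745 (16.9%) and 2082 (20.2%).

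**Figure D1:**
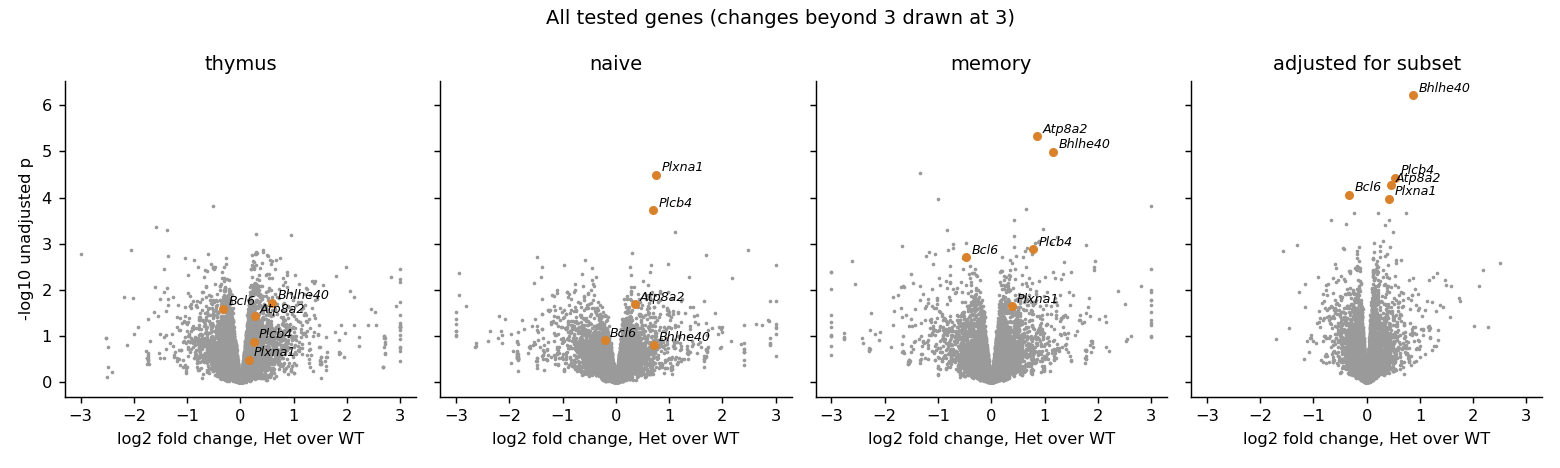
Log2 fold change of Het over WT (x axis) against the negative log10 of the unadjusted edgeR p (y axis) for the 10296 tested genes in thymus, naive and memory cells and adjusted for subset, with changes beyond 3 drawn at 3; orange points are Bhlhe40, Atp8a2, Plcb4, Plxna1 and Bcl6. Only Atp8a2 in memory cells (adjusted p = 0.0486) and Bhlhe40 in the adjusted comparison (adjusted p = 0.00631) were called.

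The size of change that these libraries allowed was narrow for most genes. The 95% interval of the fold change lay within 1.5-fold in either direction for 6342 genes in thymus (61.6%), 6580 in naive cells (63.9%) and 6575 in memory cells (63.9%). With all 23 libraries it lay within 1.5-fold for 8146 genes (79.1%) and within 2-fold for 9613 (93.4%). That comparison took the 23 libraries as independent, and its intervals could be too narrow if 1 animal gave several of them. The median SE of the log2 fold change was 0.158 in thymus, 0.151 in naive, 0.148 in memory cells and 0.0889 in the adjusted comparison, and the median log2 fold change was between 0.00 and 0.01 in each. Genes outside these limits were left undetermined by the libraries: no call there does not show that Het and WT were alike. The SE was taken from the fold change and the F statistic, so a gene with a log2 fold change of exactly 0 got an SE of 0. Such a gene was counted within the limits even where neither group had counts.

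Bhlhe40, at chr6:108660629-108666925, encodes a basic helix-loop-helix transcriptional repressor that T cells use in cytokine control. In thymus it was at 7.04, 7.36, 6.60 and 5.52 CPM in Het, 23.7 ± 3.39 CPM in KO (SD, n = 4) and 4.13, 4.01 and 5.09 CPM in WT libraries. In memory cells it was at 9.78, 8.49, 7.52 and 9.09 CPM in Het, 54.1 ± 7.14 CPM in KO and 4.50, 3.88, 3.95 and 3.32 CPM in WT libraries. Every Het library lay above every WT library in both subsets. Naive cells held little of it, 0.688, 1.39, 0.709 and 1.01 CPM in Het, 15.7 ± 7.23 CPM in KO and 0, 1.02, 0.568 and 0.523 CPM in WT libraries, and there Het and WT overlapped.

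The log2 fold change of Bhlhe40 in Het over WT was 0.59 ± 0.24 in thymus (edgeR adjusted p = 0.776), 0.71 ± 0.49 in naive cells (adjusted p = 1) and 1.16 ± 0.23 in memory cells (adjusted p = 0.0518). Adjusted for subset it rose by 0.87 ± 0.14 on the log2 scale (95% interval 0.58 to 1.16, edgeR adjusted p = 0.00631). The KO over WT values, which share the WT libraries, were 2.42 ± 0.23, 4.72 ± 0.31 and 3.78 ± 0.21. KO exceeded Het in each subset, by 1.83 ± 0.19, 4.01 ± 0.27 and 2.63 ± 0.19, with edgeR adjusted p of 5.68e-09, 6.39e-14 and 2.36e-13. The Bhlhe40 value in the adjusted comparison passed with each single library left out (log2 fold change 0.82 to 0.94, edgeR adjusted p 0.00204 to 0.0323). That model took the libraries as independent. The labels do not say whether 1 animal gave several of them, and leaving out single libraries does not test this. In thymus its value was 0.67 ± 0.26 (edgeR adjusted p = 1) without Het replicate 4. Adjusted for subset Bhlhe40 did not pass as the mean of the 3 subset contrasts (0.82, adjusted p = 0.242), nor among males alone (0.93, adjusted p = 0.383) or females alone (0.72, adjusted p = 0.618).

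Atp8a2, at chr14:59638540-60197179, encodes a flippase that moves phospholipids across membranes. Memory cells had 4.71, 4.16, 5.79 and 6.06 CPM in Het, 57.1 ± 3.27 CPM in KO and 2.64, 2.86, 2.74 and 3.23 CPM in WT libraries, with no overlap between Het and WT. Naive cells had 8.25, 5.45, 6.85 and 7.92 CPM in Het, 46.1 ± 3.77 CPM in KO and 4.76, 5.75, 6.25 and 5.23 CPM in WT libraries, where Het replicate 2 lay among the WT libraries. Thymus had 18.4, 17.8, 18.5 and 19.4 CPM in Het, 28.4 ± 4.01 CPM in KO and 18.4, 13.7 and 14.7 CPM in WT libraries, where WT replicate 1 lay among the Het libraries. The level in WT was thus highest in thymus and lowest in memory cells, and the level in KO ran the other way.

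In memory cells Atp8a2 rose by 0.86 ± 0.16 on the log2 scale in Het (95% interval 0.53 to 1.19, edgeR adjusted p = 0.0486). The values in naive cells (0.35 ± 0.15, adjusted p = 1), in thymus (0.27 ± 0.12, adjusted p = 0.8) and adjusted for subset (0.45 ± 0.10, adjusted p = 0.187) did not pass. The KO over WT values were 0.88 ± 0.12 in thymus, 3.04 ± 0.13 in naive cells and 4.31 ± 0.13 in memory cells, and KO exceeded Het in each subset (log2 differences 0.62, 2.69 and 3.45, with adjusted p of 4.39e-05 at most). The memory call depended on having the KO libraries in the fit of the spread: it was lost with only Het and WT libraries in the fit (adjusted p = 0.141) and with only the Het and WT memory libraries (adjusted p = 0.94). It did not hold under DESeq2 (adjusted p = 0.0637), and it was lost with any 1 of 7 of the 8 Het and WT memory libraries left out (adjusted p 0.0726 to 0.234), Het replicate 2 being the exception. A test of the difference between the Het effects in memory cells and thymus gave 0.60 ± 0.20 (adjusted p = 1).

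**Figure D2:**
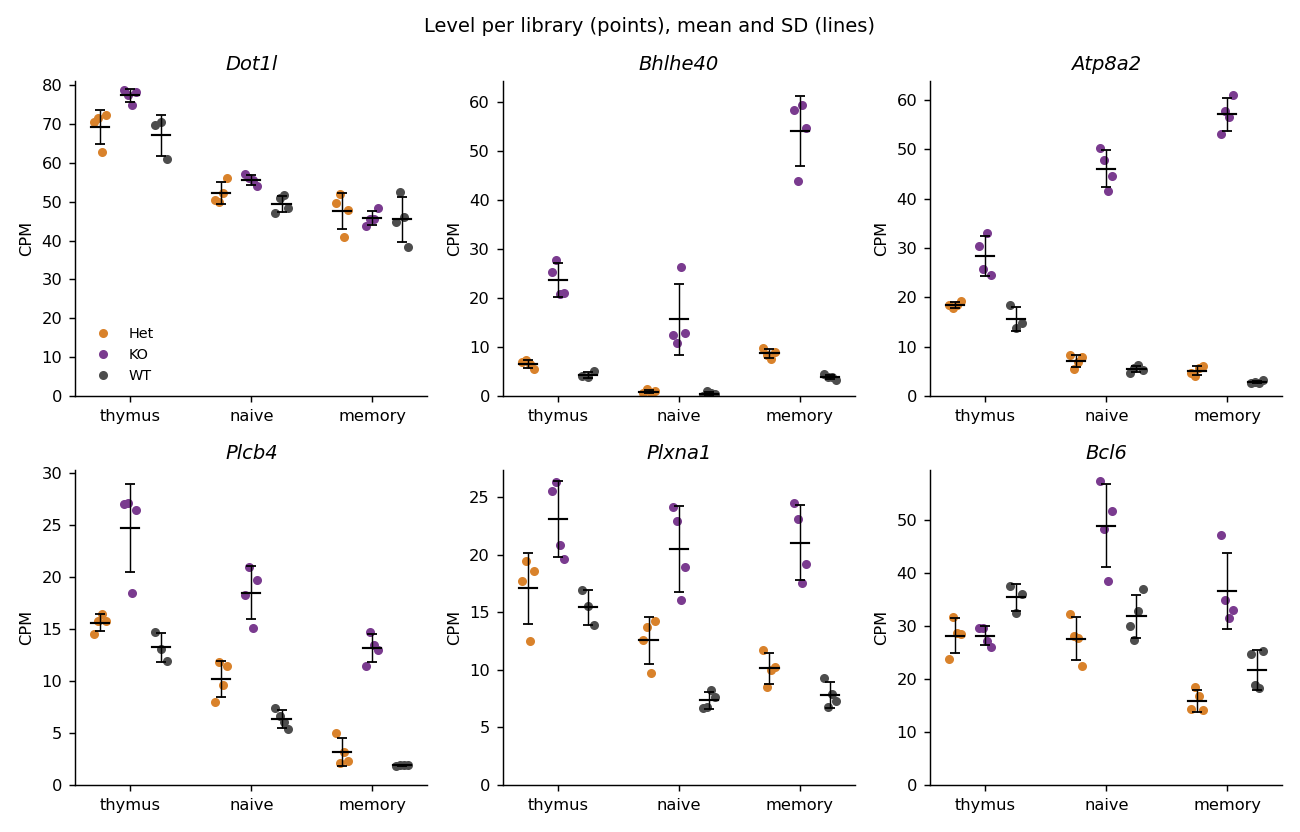
CPM (y axis, from 0) of 6 genes in every thymus, naive and memory library, with Het (orange) left, KO (purple) in the middle and WT (grey) right in each subset; points are libraries and lines the mean and SD. Het libraries of Bhlhe40 and Atp8a2 in memory cells lie above all WT libraries and far below the KO libraries, while Dot1l is at a like level in Het and WT.

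After these, Plcb4, Plxna1 and Bcl6 had the lowest p-values in the adjusted comparison, and none passed the test. Predicted models, immune receptor segments and a list of sex-linked genes were left out of this ranking and of those within subsets. Plcb4, a phospholipase C of the beta class that acts downstream of G protein-coupled receptors, had 7.96, 11.8, 9.57 and 11.4 CPM in Het naive cells, 18.5 ± 2.54 CPM in KO and 7.36, 6.64, 6.06 and 5.34 CPM in WT, with no overlap of Het and WT. Memory cells had 4.98, 2.08, 3.20 and 2.30 CPM in Het, 13.1 ± 1.36 CPM in KO and 1.86, 1.94, 1.87 and 1.88 CPM in WT, again with no overlap. In thymus Het averaged 15.6 ± 0.814 CPM, KO 24.7 ± 4.22 CPM and WT 13.2 ± 1.38 CPM, and Het replicate 1 was below the highest WT library. The adjusted log2 fold change of Plcb4 was 0.53 ± 0.11 with an edgeR adjusted p of 0.187, and it passed under DESeq2 (adjusted p = 0.0304).

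Plxna1, a receptor for semaphorins, had 12.6, 13.7, 9.69 and 14.3 CPM in Het naive cells, 20.5 ± 3.73 CPM in KO and 6.71, 6.77, 8.24 and 7.64 CPM in WT, with no overlap of Het and WT. Its log2 fold change in naive cells was 0.76 ± 0.16 (edgeR adjusted p = 0.333), beside 1.46 ± 0.16 in KO over WT. The levels overlapped between Het and WT in thymus (17.1 ± 3.1 CPM in Het, 15.4 ± 1.51 CPM in WT) and in memory cells (10.1 ± 1.33 CPM in Het, 7.81 ± 1.12 CPM in WT). Adjusted for subset the value was 0.42 ± 0.10 (adjusted p = 0.219).

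Bcl6, a transcriptional repressor with a role in T cell differentiation, was the gene of this group with less RNA in Het. Thymus had 23.7, 31.7, 28.6 and 28.4 CPM in Het, 28.1 ± 1.79 CPM in KO and 37.5, 32.5 and 36.0 CPM in WT libraries, with no overlap of Het and WT. Memory cells had 14.2, 18.4, 16.8 and 14.1 CPM in Het, 36.6 ± 7.20 CPM in KO and 24.7, 18.7, 18.2 and 25.2 CPM in WT libraries, where Het replicate 2 lay above the lowest WT library. Naive cells averaged 27.6 ± 4.04 CPM in Het, 48.9 ± 7.87 CPM in KO and 31.8 ± 4.13 CPM in WT libraries, with overlap of Het and WT. The adjusted log2 fold change of Het over WT was -0.33 ± 0.07 (edgeR adjusted p = 0.219). KO over WT, sharing the WT libraries, gave -0.33 ± 0.14 in thymus (adjusted p = 0.1), 0.62 ± 0.13 in naive cells (adjusted p = 0.000433) and 0.75 ± 0.13 in memory cells (adjusted p = 2.04e-05). KO exceeded Het by 0.83 ± 0.13 in naive cells and 1.22 ± 0.14 in memory cells (adjusted p = 5.12e-06 and 4.29e-09), so in the spleen subsets the Bcl6 level in Het and in KO lay on opposite sides of the WT mean.

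Within single subsets the other genes with the lowest p-values did not pass either. In thymus they were Rnf185 (-0.52 ± 0.12), Teddm1a (-1.39 ± 0.37), Nemf (0.29 ± 0.08), Kpna2 (0.95 ± 0.26) and Tmed5 (0.42 ± 0.12), each with an edgeR adjusted p of 0.739. Rnf185 encodes a ubiquitin ligase of the endoplasmic reticulum, and was at 16.9, 14.4, 11.3 and 14.4 CPM in Het, 14.2 ± 1.47 CPM in KO and 23.4, 17.3 and 21.1 CPM in WT thymus libraries, with no overlap of Het and WT. Kpna2, an importin of nuclear transport, was at 7.33, 3.75, 4.08 and 9.29 CPM in Het, 6.26 ± 0.440 CPM in KO and 3.46, 2.85 and 3.19 CPM in WT thymus libraries, also with no overlap of Het and WT. The KO over WT values in thymus, which share the 3 WT libraries with the Het values and are not independent of them, were -0.52 ± 0.12 for Rnf185 and 0.99 ± 0.26 for Kpna2. Without Het replicate 4 the Het over WT values were -0.53 for Rnf185 (edgeR adjusted p = 0.901), -1.33 for Teddm1a, 0.26 for Nemf, 0.67 for Kpna2 and 0.33 for Tmed5 (adjusted p = 1 for the other four). In naive and memory cells the Het over WT values of Rnf185 were -0.00 and 0.09 and those of Kpna2 -0.13 and 0.34.

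In naive cells the lowest p-values after Plxna1 and Plcb4 belonged to Ypel2 (1.11 ± 0.30), Mpp4 (2.49 ± 0.72) and Flot1 (0.29 ± 0.09), each with an adjusted p of 1. Mpp4 rested on 23 counts in the 4 Het libraries and 3 in the 4 WT libraries. Flot1, a scaffold protein of membrane microdomains, was at 95.7, 89.5, 94.7 and 103 CPM in Het, 136 ± 11.6 CPM in KO and 68.9, 70.1, 87.6 and 84.7 CPM in WT naive libraries, with no overlap of Het and WT.

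In memory cells the lowest p-values after Atp8a2 and Bhlhe40 belonged to Ficd, Gapdh and Bbs5. Ficd, an enzyme that modifies the chaperone BiP, had 1.07, 0.961, 1.85 and 0.627 CPM in Het, 2.22 ± 0.748 CPM in KO and 2.95, 2.86, 2.74 and 2.78 CPM in WT memory libraries, with no overlap of Het and WT. Its log2 fold change was -1.34 ± 0.29 (edgeR adjusted p = 0.102), beside -0.30 ± 0.25 in KO over WT (adjusted p = 0.447). Ficd passed with Het memory replicate 3, the highest Het library, left out (-1.67, edgeR adjusted p = 0.0396). Gapdh had 10 to 19 counts per Het and 28 to 44 per WT memory library (log2 fold change -1.01 ± 0.24, adjusted p = 0.28) and is uncertain, since the many processed copies of this gene can share its reads. Bbs5, a subunit of the BBSome of cilia, had 22 counts over the 4 Het memory libraries, 13 at most in 1 of them, and 0 in all 4 WT memory libraries (adjusted p = 0.295). All 4 KO memory libraries had Bbs5, with 7 to 20 counts.

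The difference of the Het effect between subsets was tested directly. The edgeR test called 0 genes for naive minus thymus, 0 for memory minus naive and 0 for memory minus thymus (0% in each), with 419 (4.07%), 294 (2.86%) and 381 (3.7%) at an unadjusted p under 0.05. DESeq2 also called 0 in each, and without Het thymus replicate 4 edgeR again called 0. The median SE of these differences was 0.219, 0.212 and 0.217 on the log2 scale. The 95% interval lay within 2-fold for 7035, 7169 and 7069 genes (68.3%, 69.6% and 68.7%).

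Complete separation of Het and WT libraries was also counted. In thymus 220 genes had every Het library above every WT library (2.14%) and 250 had every one below (2.43%); without Het replicate 4, with 1 library fewer to separate, the counts were 382 and 423. In naive cells the counts were 92 (0.894%) and 92 (0.894%), and in memory cells 147 (1.43%) and 146 (1.42%). The higher and lower counts were close to each other in each subset, and 0 genes separated in the same direction in all 3. Genes beside Dot1l can come from the strain in which a floxed allele was made. Of 150 genes tested within 10 Mb of Dot1l, 0 were called, and 6% in thymus, 2% in naive, 2% in memory cells and 4% in the adjusted comparison had an unadjusted p under 0.05, against 6.04%, 2.74%, 5.07% and 5.74% on the other autosomes.

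The KO libraries gave a second way to look at Het. A panel of 30 genes that differ strongly between KO and WT, chosen with earlier results of these data known, had 24 members called in thymus, 29 in naive cells and 28 in memory cells in KO over WT, and 22, 29 and 28 in KO over Het. In Het over WT it had 0, 0 and 0 called. Adjusted for subset 1 was called, Bhlhe40, and 5 were higher and 4 lower at an unadjusted p under 0.05 (3.21% and 2.49% of all tested genes). The Het and KO comparisons share the WT libraries, so their values are set side by side here and no relation between them was tested.

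Of the panel's genes with more RNA in KO, Nrp1, a co-receptor for semaphorins, was at 3.16 ± 0.663 CPM in Het, 14.3 ± 1.45 CPM in KO and 2.06 ± 0.417 CPM in WT thymus libraries. It was at 1.83 ± 0.559 CPM in Het, 31.1 ± 2.68 CPM in KO and 0.976 ± 0.322 CPM in WT naive libraries, and at 2.47 ± 0.548, 45.7 ± 8.21 and 2.07 ± 0.809 CPM in the Het, KO and WT memory libraries. Het and WT overlapped in naive and memory cells and did not in thymus, where the lowest Het library had 2.57 CPM and the highest WT library 2.53 CPM. The adjusted Het value was 0.54 ± 0.18 (edgeR adjusted p = 0.701). Ncald, a neuronal calcium sensor, had an adjusted value of 0.59 ± 0.21 (adjusted p = 0.771), Cdc42bpa, a kinase bound by CDC42, 0.62 ± 0.28 (adjusted p = 0.846), and Soat2, which esterifies cholesterol, 0.40 ± 0.19 (adjusted p = 0.846). In memory cells Soat2 was at 8.27 ± 1.5 CPM in Het, 45.4 ± 4.22 CPM in KO and 6.64 ± 2.57 CPM in WT libraries, and Ncald at 5.43 ± 1.72, 33.0 ± 4.52 and 3.57 ± 1.22 CPM in the same order. The panel's regulators Tbx21 (0.17 ± 0.14), Eomes (-0.15 ± 0.10), Zeb2 (0.15 ± 0.28) and Id2 (0.11 ± 0.10) did not pass.

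Of the panel's genes with less RNA in KO, Slc35g1, of a family of membrane transporters, had 7.86, 7.33, 7.80 and 7.36 CPM in Het, 1.29 ± 0.440 CPM in KO and 9.31, 9.45, 9.47 and 9.84 CPM in WT naive libraries, with no overlap of Het and WT. In thymus it was at 4.85 ± 1.17 CPM in Het, 3.27 ± 0.733 CPM in KO and 6.06 ± 0.635 CPM in WT, and in memory cells at 5.76 ± 1.53, 1.54 ± 0.614 and 6.99 ± 1.13 CPM, with overlap in both. The adjusted value was -0.31 ± 0.10 (edgeR adjusted p = 0.665). Cd6, a receptor that tunes T cell receptor signalling, was at 71.8 ± 5.75 CPM in Het, 29.4 ± 4.34 CPM in KO and 82.9 ± 3.12 CPM in WT memory libraries (adjusted for subset -0.18 ± 0.05, adjusted p = 0.647). Cd5, a related inhibitory receptor, had -0.16 ± 0.08 (adjusted p = 0.861). Tuba3a, an alpha tubulin with near-identical copies and therefore uncertain, had -0.30 ± 0.12 (adjusted p = 0.833). The naive regulators Lef1 and Satb1 had -0.07 ± 0.04 and 0.02 ± 0.04.

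**Figure D3:**
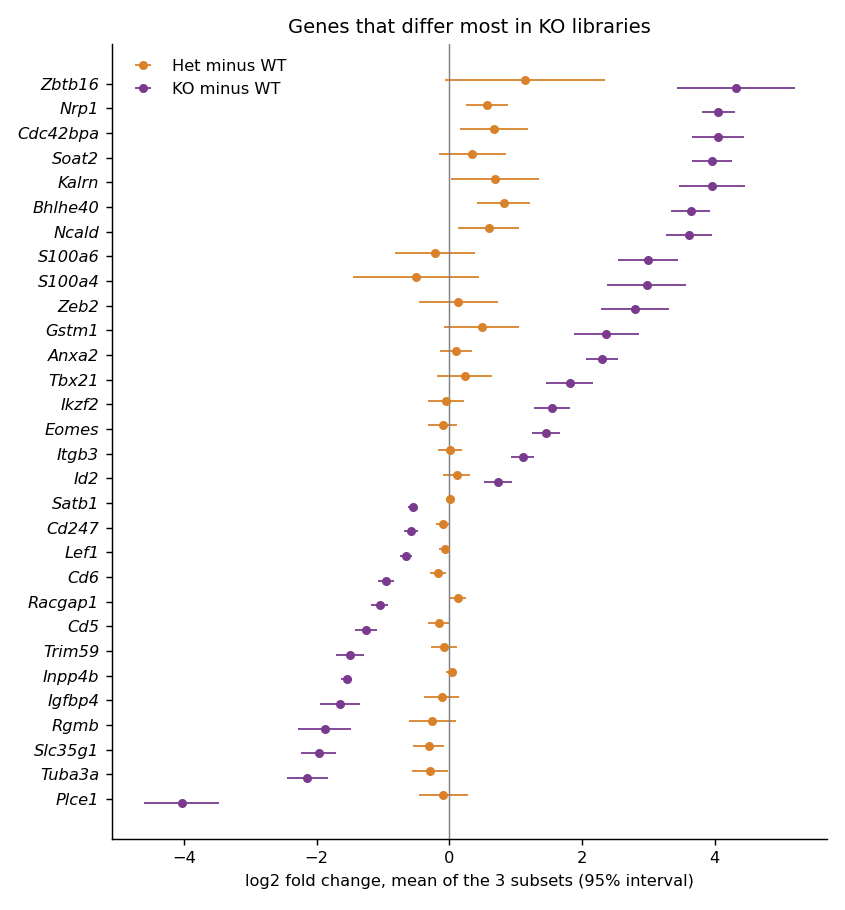
Log2 fold change over WT (x axis, mean of the 3 subsets, bars 95% intervals) of the 30 panel genes in Het (orange) and KO (purple), ordered by the KO value; both use the same WT libraries. The Het values lie between -0.50 (S100a4) and 1.14 (Zbtb16) and the KO values run from -4.04 (Plce1) to 4.32 (Zbtb16). Zbtb16 had at most 2 counts in any WT naive or memory library and at most 6 in any Het library there, so the size of its changes is uncertain.

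A score summarised many KO-responsive genes in each library. For each subset it took the genes called in the same direction in KO over WT in both other subsets, and was the mean log2 CPM of those with more RNA in KO minus that of those with less. It is given as a description with no test, since the genes were chosen on these libraries' readout. In thymus the score was -3.91 ± 0.05 in Het, -2.88 ± 0.04 in KO and -4.00 ± 0.10 in WT libraries (SD, n = 4, 4 and 3). In naive cells it was -4.73 ± 0.08, -3.03 ± 0.16 and -4.88 ± 0.14, and in memory cells -3.72 ± 0.10, -1.92 ± 0.06 and -3.86 ± 0.10 (Het, KO and WT, n = 4 each). Het and WT libraries overlapped in each subset. The highest Het library was at -3.85 in thymus, -4.66 in naive cells and -3.59 in memory cells, below the lowest KO library at -2.92, -3.18 and -1.99.

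**Figure D4:**
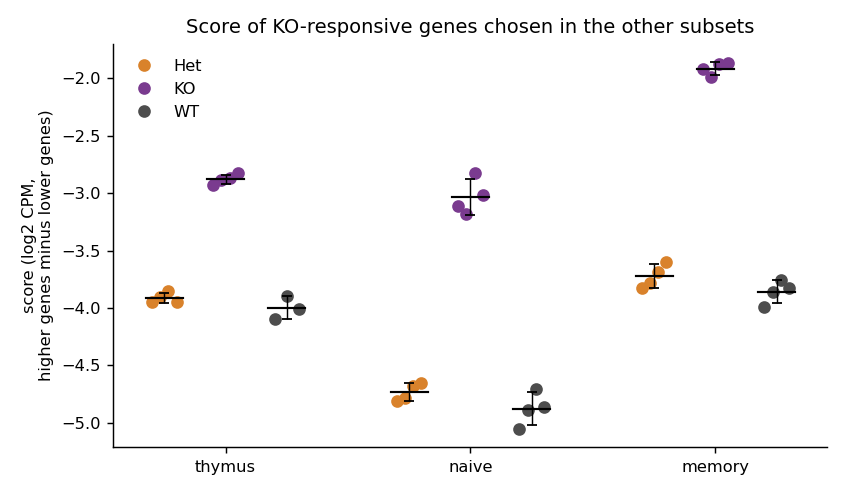
Score of KO-responsive genes (y axis, difference of mean log2 CPM) in each thymus, naive and memory library, with Het (orange) left, KO (purple) in the middle and WT (grey) right; lines are the mean and SD. Het means lie 0.0863, 0.144 and 0.136 above the WT means in thymus, naive and memory cells, and the KO means lie more than 1 unit above both.

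The difference of the Het mean score from the WT mean was 0.0863 in thymus, 0.144 in naive cells and 0.136 in memory cells. It stayed positive with each library left out in turn (0.0399 to 0.139, 0.0861 to 0.201 and 0.092 to 0.171), and was 0.0989 in thymus without Het replicate 4. Gene by gene, the 525 genes with more RNA in KO in both thymus and naive cells had a median Het over WT log2 fold change of 0.09 in memory cells, against 0.00 over all tested genes and 1.25 in KO over WT. Of these 525, 60 (11.4%) were higher in Het at an unadjusted p under 0.05, and 7 (1.33%) lower, against 2.79% and 2.33% of all tested genes. The 564 such genes of naive cells had a median of 0.09, with 33 higher (5.85%) and 9 lower (1.6%), against 1.41% and 1.26% of all genes. The 815 of thymus had a median of 0.02, with 35 higher (4.29%) and 14 lower (1.72%), against 3.5% and 2.68% of all genes, and without Het replicate 4 a median of 0.03, with 35 higher and 11 lower, against 2.03% and 2.07% of all genes. The genes with less RNA in KO had Het medians of -0.01 in thymus (493 genes), -0.01 in naive cells (290) and -0.02 in memory cells (263). At an unadjusted p under 0.05, 22 of the 493 were lower in Het thymus (4.46%) and 9 higher (1.83%), and without Het replicate 4 these were 12 and 3. In naive cells 1 of the 290 was lower (0.345%) and 0 higher, and in memory cells 13 of the 263 were lower (4.94%) and 1 higher (0.38%), beside the shares of all genes just given. The filter on counts used all 9 groups, so a gene could be kept through its KO libraries alone. All tested genes are therefore not a matched background for these shares. In memory cells the quartiles of the Het over WT value were -0.04 and 0.33 for the 525 genes. Over all tested genes they were -0.10 and 0.10. Het and WT libraries of the scored subset were not used to choose the KO-responsive genes, but WT libraries of equal number in naive and memory cells deviated together (correlations 0.206 to 0.310 across genes) and may come from the same animals. Het libraries of equal number had mean correlations of 0.0988 (thymus with naive), 0.138 (thymus with memory) and 0.137 (naive with memory). For WT thymus the means were 0.0749 with naive and 0.0773 with memory cells, with some negative values in each.

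Examples from the 525 genes in memory cells, beside Atp8a2 and Bhlhe40, were Tsc22d1, Dapk1, Slc25a24 and Adamts17. Tsc22d1, a leucine zipper transcription factor, was at 8.75 ± 1.42 CPM in Het, 34.0 ± 1.72 CPM in KO and 5.53 ± 1.63 CPM in WT libraries, with a Het over WT value of 0.65 ± 0.16 (edgeR adjusted p = 0.295). Dapk1, a calmodulin-regulated kinase tied to cell death, was at 2.36 ± 1.39 CPM in Het, 14.2 ± 3.23 CPM in KO and 0.936 ± 0.331 CPM in WT libraries (1.24 ± 0.34, adjusted p = 0.581). Slc25a24, a mitochondrial carrier, and Adamts17, a secreted protease, had 0.90 ± 0.25 and 0.98 ± 0.26 (adjusted p = 0.581 for both). In thymus the genes of this kind with the lowest p included Arhgap5, at 41.4 ± 5.91 CPM in Het, 77.6 ± 4.11 CPM in KO and 31.0 ± 1.67 CPM in WT libraries (0.42 ± 0.12, adjusted p = 0.739), and 0.40 ± 0.13 without Het replicate 4. In naive cells Furin, a protease that processes precursor proteins, was at 82.6 ± 8.83 CPM in Het, 136 ± 9.63 CPM in KO and 69.1 ± 4.16 CPM in WT libraries (0.26 ± 0.08, adjusted p = 1). None of these passed in Het, and Nt5dc2 in naive cells went the other way, at 1.38 ± 0.225 CPM in Het, 4.89 ± 0.950 CPM in KO and 2.32 ± 0.928 CPM in WT libraries.

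Partners and related enzymes of DOT1L showed 0 called genes in Het in any subset or in the adjusted comparison. Of 15 tested members of the DOT1L and elongation factor list, the adjusted log2 fold change ran from -0.14 (Eaf1) to 0.06 (Dot1l) with a median of 0.01, beside 0.00 over all genes. Mllt10, whose product stimulates DOT1L, had 0.05 ± 0.04. The 25 tested writers and erasers of other histone H3 methyl marks had a median of 0.04 (range -0.13 to 0.08), and the 12 tested members of Polycomb repressive complex 2 a median of 0.02, with Ezh2 at 0.13 ± 0.07 (edgeR adjusted p = 0.879). The 7 tested HOXA cluster and cofactor genes, which DOT1L is known to sustain in leukaemia, had a median of -0.25, and Meis1 1.17 ± 0.64 and Hoxa7 -0.77 ± 0.46 marked its range. Their levels are low and their intervals wide.

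Lists of T cell state were also without calls, apart from Bhlhe40 in the memory list. Of its 19 tested members 3 were higher and 0 lower at an unadjusted p under 0.05 in the adjusted comparison (3.21% and 2.49% of all tested genes). Beside Bhlhe40 these were the integrin chains Itgb1 (0.13 ± 0.05, edgeR adjusted p = 0.813) and Itga4 (0.19 ± 0.08, adjusted p = 0.846). The list median was -0.05. The 13 tested effector genes had a median of 0.11, with S100a4 at -0.60 ± 0.40 and Prdm1, which encodes the transcriptional repressor Blimp-1, at 0.38 ± 0.21. The 23 tested genes of naive and quiescent cells had a median of -0.01. Of these 0 were higher and 1 was lower at an unadjusted p under 0.05, Actn1 (-0.09 ± 0.04), beside the same shares of all genes. The 33 T cell receptor signalling genes had a median of -0.04, the 20 tested interferon-induced genes 0.03, the 24 tested proliferation genes 0.04, the 12 heat-shock genes 0.03, the 13 tested cholesterol synthesis genes -0.11, the 13 tested genes of immature single positive cells -0.09 and the 8 tested inhibitory receptors and regulators -0.07.

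Genes induced early after T cell stimulation stood lower on the median than all genes in memory cells. Of 19 tested, 0 were called and 4 were lower and 0 higher at an unadjusted p under 0.05 (2.33% and 2.79% of all genes), with a median of -0.22. Adjusted for subset the median was -0.12, with Egr3 at -0.27 ± 0.11 (edgeR adjusted p = 0.825), Junb at -0.18 ± 0.08 (adjusted p = 0.846) and Egr1 at -0.25 ± 0.12 (adjusted p = 0.871). In naive cells the median was 0.02 and in thymus -0.09. The direction was not the same in both sexes: among females alone, with 1 Het library in each subset, the adjusted values were 0.05 for Egr1, 0.31 for Egr2 and 0.00 for Egr3, against -0.45, -0.55 and -0.46 among males alone, and in memory cells Egr1 and Egr2 were at 0.11 and 0.40 in females and -0.93 and -1.09 in males. None of these passed, and the difference between the sexes was not tested. Junb was negative in both.

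Markers of other cells were compared between Het and WT. The summed level of 15 B cell genes was 195 to 239 CPM in Het and 200 to 348 CPM in WT naive libraries, 155 to 294 CPM in Het and 201 to 397 CPM in WT memory libraries, and 74.3 to 83.8 CPM in Het and 82.4 to 102 CPM in WT thymus libraries. Most of it was Ighm (145 to 192 CPM in Het and 182 to 226 CPM in WT memory libraries). Ighm had an adjusted log2 fold change of -0.19 ± 0.06 (edgeR adjusted p = 0.663) and Cd79a -0.89 ± 0.39 (adjusted p = 0.835). The summed level of 10 erythroid and platelet genes was 4.73 to 84.3 CPM in Het and 5.68 to 33.7 CPM in WT naive libraries, and 3.94 to 56.7 CPM in Het and 6.47 to 26.8 CPM in WT memory libraries. The 13 myeloid genes summed to at most 7.21 CPM in Het and 6.90 CPM in WT, and Ncr1, which marks natural killer cells, was at 0 in all 23 libraries. A list of 9 natural killer and innate-like genes, Eomes among them, summed to 140 to 180 CPM in Het and 177 to 204 CPM in WT memory libraries. In naive libraries its sum was 48.4 to 71.3 CPM in Het and 50.7 to 74.2 CPM in WT. In thymus it was 9.55 to 15.7 CPM in Het and 9.42 to 14.8 CPM in WT. The part of other cells in the Het values was not tested.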

How the data were processed

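RNA was extracted with Trizol and sequenced as 65-base single reads from stranded TruSeq mRNA libraries, per the labels' protocols. The authors deposited a table of raw counts by Ensembl gene, made with TopHat2 2.1.0, TopHat and HTSeq 0.9.1 on GRCm38 (mm10), per the submitters' processing notes. The annotation release and the strand setting are not given in the sources used here, and genes that overlap on opposite strands can hold each other's reads. Of 52636 identifiers 19776 had a count, and GENCODE M21 (GRCm38) named 52403 and gave the positions.

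Columns were matched to samples by genotype, subset and number. In R 4.3.3, edgeR 4.0.16 kept 10296 genes (filterByExpr over the 9 groups) and scaled libraries by TMM (factors 0.927 to 1.07). A robust quasi-likelihood model of group means over 35 libraries (26 residual degrees of freedom) gave the contrasts within subsets and their differences. A model of subset plus genotype over the 23 Het and WT libraries (19 residual degrees of freedom) gave the adjusted comparison. Two-sided p-values were corrected by the Benjamini-Hochberg method across the tested genes. The SE was obtained by dividing the log2 fold change by the root of the F statistic. CPM are TMM-scaled, and log2 CPM used a prior count of 2. The chi-square per gene between libraries of a group was 4.94 or more, so no library was counted again, and was highest for Het thymus replicate 4 (34.2 to 45.2). The test was checked on simulated data.

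The groups, the 23 gene lists and the 30-gene panel were chosen with earlier results of these data known. Named genes were Dot1l, every called gene, the 5 lowest p-values of each comparison and up to 4 members of each list with the lowest p. Predicted models, immune receptor segments and the list of sex-linked genes were left out before the 5 lowest p-values were taken. Genes from the KO-responsive sets are those with the lowest p in Het, and values of Slc35g1, Nrp1 and the B cell, Rag1 and Gapdh counts were chosen after they were seen. The alternatives tried were RLE scaling, no filter, a stricter filter (4 libraries with a CPM of 1 or more), non-robust estimation, centring, sex as a term, a replicate block, other sets of libraries in the fit, DESeq2 1.42.0, limma 3.58.1 with a random block, and each library left out. Males and females alone were added after seeing the data.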

Additional observations from a re-analysis of the deposited data

How the results depend on the processing

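Calls of Het over WT were few under every setting run, and no called value changed sign. In memory cells 1 gene was called as reported, against 2 with RLE scaling, 3 without a filter, 2 with sex as a term, 2 with centring on the mean log level, 0 with estimates that were not robust, 0 in males and 0 in females alone, and 0 to 1 with a library left out. In naive cells 1 gene was called without a filter (Plxna1) and 1 with only the libraries of the 2 groups (Ckmt1), against 0. Adjusted for subset 1 gene was called, against 4 without a filter, 2 with sex as a term, 4 with DESeq2, 2 as the mean of the 3 contrasts, 0 in males alone, and 1 to 2 with a library left out. Bhlhe40 was called in 32 of 35 alternatives of the adjusted comparison and in 8 of 20 in memory cells, and Atp8a2 in 7 of 20 in memory cells. The cause of these changes was not tested. Equally numbered Het and WT libraries deviated together in the spleen subsets. Their mean correlation was 0.147 in naive cells (0.00658 to 0.241) and 0.161 in memory cells (0.0570 to 0.212). Pairs with unequal numbers had means of -0.0494 and -0.0536. In thymus equal numbers had a mean of -0.0361 (-0.158 to 0.119), against 0.0121. The labels do not say what Het and WT libraries of a number share, and the source of these correlations was not tested. With the replicate block 3 genes were called in memory cells (Atp8a2, Bhlhe40 and Ficd, the last at -1.36 with an edgeR adjusted p of 0.0439) and 1 in the adjusted comparison, and 0 elsewhere; a random replicate block gave 1 in the adjusted comparison. Lower depth widens the intervals of genes with few counts, so changes of up to 1.5-fold were not detectable in single subsets for many genes.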
